A study of Salmo salar with 48 samples.

Results

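The amplicon on salmon chromosome 4 at 35 Mb is a stretch of genomic DNA that was amplified after bisulfite conversion and sequenced in the liver of each of 48 juvenile Atlantic salmon (Salmo salar). Its members are 18 CpGs of reference sequence NC_027303.1, all read on the plus strand, within a span of 393 bp. They were taken by position alone, out of 107 CpGs in 7 amplified regions that had calls in every fish. The CpGs are numbered 1 to 18 along the plus strand. The name of the genome build is not given in the sources used here, and the gene at these positions was not analysed here, since the gene table at hand (Ssal_v3.1) belongs to another assembly.

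The juveniles descended from commercially kept St. John River strain broodstock, and they belonged to 3 treatments with 2 sampling times. Warm normoxic fish (WN) were warmed by 1 °C per week from 12 to 20 °C in water at 100% air saturation. In the warm hypoxic treatment (WH) fish were brought to 70% air saturation, held there, and then warmed along the same ramp. Control fish (CT) stayed at 12 °C and 100% air saturation. Sampling of livers followed 3 days or 4 weeks at 20 °C, with controls alongside, and took 8 fish per group. Of these 8, each of 2 tanks gave 4. A treatment kept its own 2 tanks at both times, so a tank and a treatment cannot be told apart, and the p-values below measure the spread between fish. Of the fish, 23 were male and 25 female.

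CpG methylation is the addition of a methyl group to the cytosine of a CpG dinucleotide by DNA methyltransferases. In vertebrates most CpGs of the genome are methylated, whereas CpG-rich stretches around the start of active genes are usually free of it. Bisulfite turns unmethylated cytosine into uracil, which is read as T, and leaves methylated cytosine as C. The level given for a CpG is how many percent of its reads kept C. In a whole liver, an intermediate level can arise when some cells carry the methyl group and others do not, or when the DNA copies of a cell differ, and these counts cannot tell the cases apart.

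The amplicon was read deeply and evenly. The median fish had 74081 reads per CpG, the shallowest 36084 and the deepest 162024. Over all CpGs and fish the lowest number of reads was 35795, so every CpG of every fish passed the minimum of 30 reads. Within a fish the best and the least covered CpG differed by at most 1.18% of the fish's median. The 95% Wilson interval of a level in a single fish reached at most 0.516 percentage points to either side, with a median of 0.289 points. It covers counting error only, since PCR reads are not independent molecules.

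The region was neither methylated nor unmethylated as a whole. The mean of its 18 CpGs was 26.6% ± 4.78 (SD, n = 48 fish), from 16.0% in the lowest to 38.3% in the highest fish. In all 48 fish it lay below the amplified region on chromosome 9, which averaged 92.3% (87.7 to 94.2%). It lay above that on chromosome 14, which averaged 1.36% (0.688 to 2.90%). As these ranges do not overlap, the sign-flip permutation could only give its smallest p (1e-05 for each, Benjamini-Hochberg adjusted p = 1e-05 over 5 regions, two-sided). It adds nothing to the description. Within the amplicon the CpGs covered a range of levels that reached from near 0 to over 60%, and the pattern along the DNA was jagged.

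**Figure D1:**
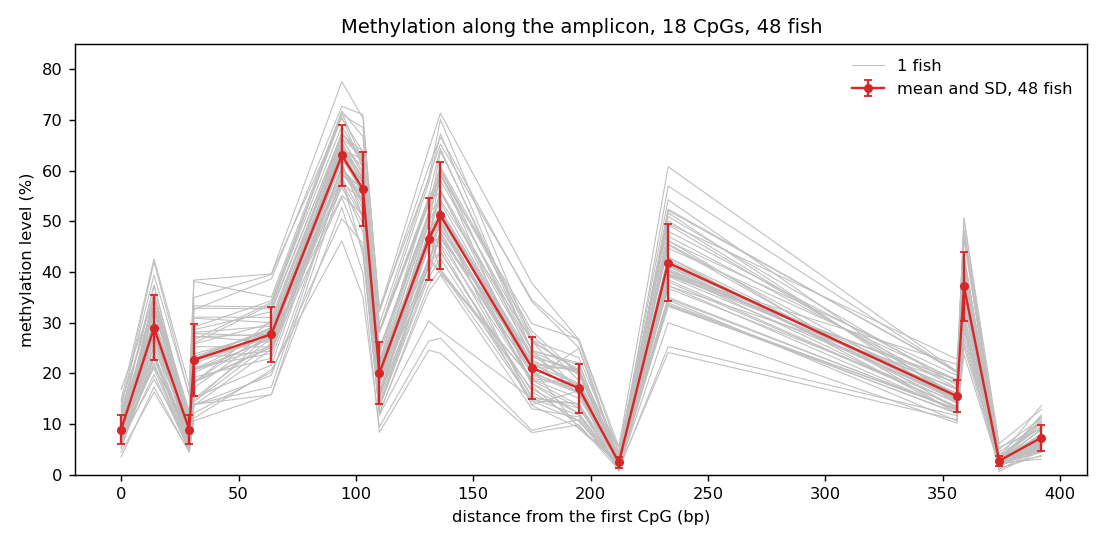
Methylation level in percent at each of the 18 CpGs against its distance in bp from the first CpG. Grey lines are the 48 fish, red points and bars are their mean and SD. CpG 6 had the highest mean at 63.0% and CpG 13 the lowest at 2.43%, and the lines of the fish rise and fall together.

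The highest levels stood in the centre-left of the amplicon. CpG 6, at position 35435919, had 63.0% ± 6.04 and ranged from 46.2% to 77.6% among the 48 fish. The next CpG, number 7 at position 35435928, followed with 56.4% ± 7.32. These were the only CpGs besides CpG 10 that kept C in most reads on average. CpG 10, at position 35435961, had 51.2% ± 10.5 and the widest spread between fish in points, from 24.0% to 71.4%. CpG 9, at position 35435956, had 46.5% ± 8.07, and CpG 14, at position 35436058, had 41.9% ± 7.65 (SD, n = 48 each). These were the 5 CpGs with a mean above 40%.

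Another 8 CpGs had means between 15 and 40%. CpG 16, at position 35436184, led them with 37.2% ± 6.77. CpG 2, at position 35435839, had 29.0% ± 6.38, and CpG 5, at position 35435889, had 27.7% ± 5.40. The 2 differed by 1.29 points on average, and CpG 2 was the higher one in 29 of 48 fish, so their order was not fixed. CpG 4, at position 35435856, stood at 22.7% ± 7.15. CpG 11, at position 35436000, stood at 21.1% ± 6.12, and CpG 8, at position 35435935, at 20.0% ± 6.13. Neighbours in this part of the order overlapped widely, as CpG 4 exceeded CpG 11 in 32 of 48 fish and CpG 11 exceeded CpG 8 in 33. CpG 12, at position 35436020, had 17.1% ± 4.88, and CpG 15, at position 35436181, had 15.5% ± 3.14 (SD, n = 48 each).

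The remaining 5 CpGs had means under 10%. CpG 3, at position 35435854, had 8.93% ± 2.91 and CpG 1, 14 bp before CpG 2, had 8.91% ± 2.82, a difference of 0.0201 points that was far smaller than its SD between fish of 2.10. CpG 18, the last one, 18 bp after CpG 17, had 7.32% ± 2.60. Lowest of all were CpG 17, at position 35436199, with 2.76% ± 1.04 and CpG 13, at position 35436037, with 2.43% ± 1.13 (SD, n = 48 each). At CpG 13 the lowest level was 0.685% of 136473 reads (95% Wilson interval 0.643 to 0.730%), in a WH fish of 3 days, and the highest was 5.52% of 67280 reads (5.35 to 5.70%), in a CT fish of 4 weeks. The conversion rate is not given in the sources used here. How much of a level this near the floor comes from unconverted C was not tested.

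CpGs that lay only a few bases apart differed strongly. CpG 3 and CpG 4 are 2 bp apart, and CpG 4 was higher by 13.8 ± 4.93 points (SD, n = 48). CpG 16 exceeded CpG 15, 3 bp before it, by 21.6 ± 5.64 points. The steepest fall over a short distance was between CpG 7 and CpG 8, which are 7 bp apart, where the level dropped by 36.4 ± 3.40 points. CpG 13 sat in a trough, 14.6 ± 4.29 points below CpG 12 and 39.4 ± 6.85 points below CpG 14 (SD, n = 48 each). Each of these steps had the same direction in all 48 fish. The same held for 14 of the 17 steps from one CpG to the next. The 3 others were CpG 4 to 5, which rose in 40 fish, CpG 9 to 10, which rose in 41, and CpG 11 to 12, which rose in 4. The median number of reads over the fish ran from 73448 at CpG 14 to 74129 at CpG 8. Whether the steps in level go with these small steps in depth was not tested.

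The pattern along the amplicon recurred in all fish. CpG 6 was the highest CpG in 46 of 48 fish and CpG 10 in the other 2. The lowest CpG was CpG 13 in 32 fish and CpG 17 in 16. Ranked within a fish, the 18 levels had a Spearman correlation with the ranking of the means over 48 fish of 0.990 in the median fish and 0.950 in the lowest, and between the means of any 2 of the 6 groups it was at least 0.994. These are descriptions across CpGs that share a library. The base that follows the CpG, the one feature of the surrounding sequence that the files give, did not sort the levels into separate ranges. The 7 CpGs followed by T had means from 2.43% to 41.9%, and the 6 followed by A had means from 2.76% to 63.0%. The 3 followed by C ranged from 8.93% to 56.4%, and the 2 followed by G had 15.5% and 51.2%.

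Fish that were high at one CpG tended to be high at the others. Pearson's r between the levels of 2 CpGs over the 48 fish was above 0 for all 153 pairs, with a median of 0.747 and a range of 0.455 to 0.954. The median Spearman's rho was 0.716. Taking each fish relative to the mean of its group left the median r at 0.746, so the shared variation lay between fish of the same group. The first principal component of the 18 CpGs held 74.5% of their standardised variance and the second 5.47%. Pairs up to 50 bp apart had a median r of 0.819 (35 pairs), and pairs over 200 bp apart had 0.619 (46 pairs). Most pairs over 200 bp apart include a CpG numbered 15 to 18, at the end of the amplicon. Pairs among these end CpGs lie at most 36 bp apart, yet their r was only 0.457 to 0.592. The contrast therefore mixes distance with the CpGs involved, and an effect of distance was not tested. The CpGs of a fish share 1 library and had nearly the same number of reads.

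The mean of the first 9 CpGs and the mean of the last 9 rose together over the fish, with r = 0.965 and rho = 0.946 (n = 48, permutation p = 1e-05 for both, the smallest that 100000 resamples can give). Without the 2 fish farthest from the median of the first 9, r was 0.956. Within treatments r was 0.956 in WN, 0.939 in WH and 0.983 in CT fish, and rho was 0.897, 0.918 and 0.974 in the same order (n = 16 each, permutation p at most 2e-05). Single CpGs took part to different degrees. Against the mean of the other 17 CpGs, r was 0.956 at CpG 14 and 0.954 at CpG 11, but 0.615 at CpG 15 and 0.566 at CpG 17. For each point by which the other CpGs of a fish were higher, CpG 10 was higher by 2.04 points, and CpG 17 by 0.117 points. These slopes are not on a like footing, since CpG 10 averaged 51.2% and CpG 17, near the floor, 2.76%. Relative to its mean, CpG 17 varied more between fish, with an SD of 37.6% of the mean against 20.6% at CpG 10.

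**Figure D2:**
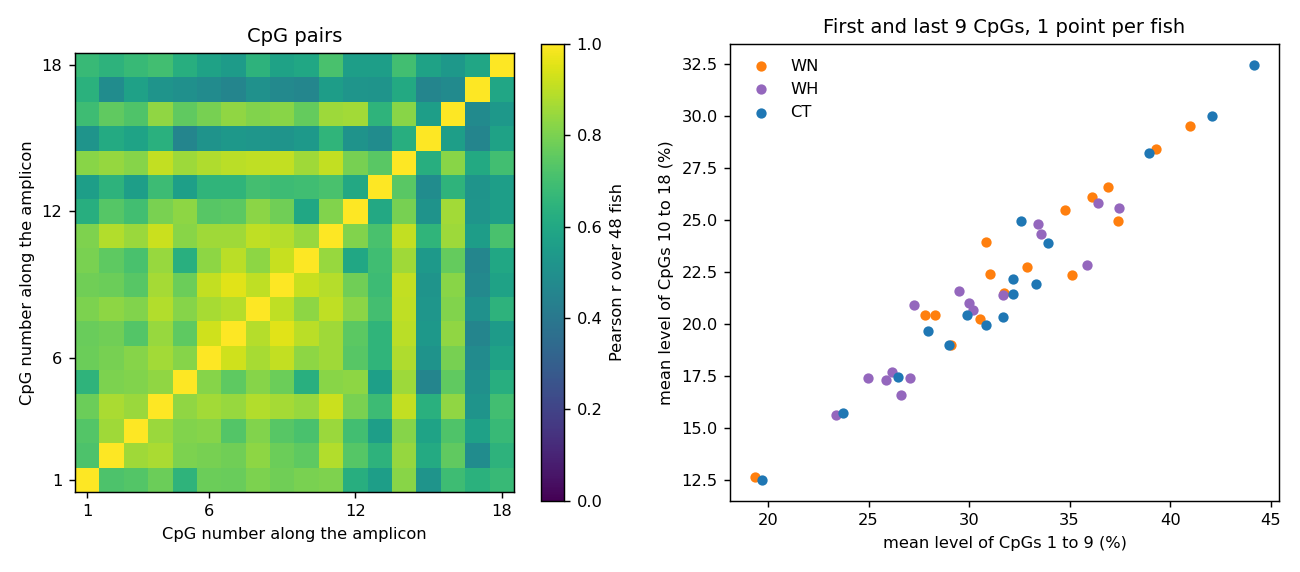
Left, Pearson's r over 48 fish between the levels of each pair of the 18 CpGs, numbered along the amplicon, on a colour scale from 0 to 1. Right, the mean level of CpGs 10 to 18 against that of CpGs 1 to 9 in percent, 1 point per fish, coloured by treatment; the points of the 3 treatments overlap along the diagonal, with r = 0.965 over all fish.

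Such joint variation was weaker elsewhere. Median pairwise r over CpGs with 30 reads in every fish was 0.401 for the 8 CpGs on chromosome 9 and between -0.0542 and 0.0641 for the 4 regions with low levels. These are descriptions, and the difference was not tested. The other regions left less variation between fish to share. The SD of their region means was 1.17 points on chromosome 9 and 0.0541 to 0.458 points in the 4 low regions, against 4.78 points here. The region on chromosome 3 also had a median of only 436 reads per CpG. The r values are therefore not measured on a like footing. A fish's mean in this amplicon was not related past the threshold to its mean in any of the 5 other regions, where r lay between -0.249 and 0.137 and rho between -0.146 and 0.133 (n = 48, permutation, adjusted p at least 0.447 over the 5 relations). It was also not related past the threshold to the read depth of the amplicon. Against log10 of the median reads per CpG, r was -0.196 (permutation p = 0.182) and rho was -0.127 (p = 0.388), with r = -0.147 without the 2 fish of the most extreme depth. Within treatments r was -0.101 in WN, -0.239 in WH and -0.388 in CT fish (n = 16 each, permutation p of 0.709, 0.372 and 0.137).

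Little of the variation between fish lay between the groups. Of the sum of squares of the region mean, 91.8% lay within the 6 groups. After 3 days the region means of the 8 WN fish ran from 16.0% over a median of 28.3% to 35.2%. The 8 WH fish of that time ran from 19.5% over 21.9% to 31.1%, and the 8 CT fish from 16.1% over 25.7% to 36.0%. After 4 weeks the lowest, median and highest fish had 24.0%, 27.0% and 33.8% in WN, 21.9%, 26.0% and 31.5% in WH, and 19.7%, 27.0% and 38.3% in CT. The 6 groups overlapped, and the fish of CT spanned the most at both times.

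**Figure D3:**
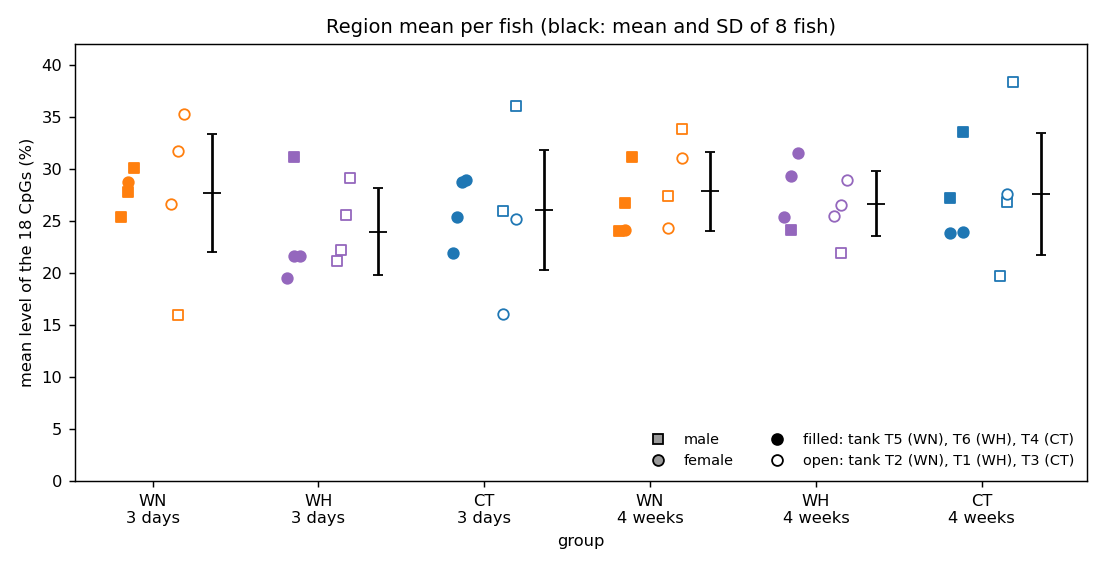
Mean level of the 18 CpGs in percent for each of the 48 fish, by treatment and time. Squares are males and circles females, filled symbols are tank T5 of WN, T6 of WH and T4 of CT, open symbols are T2, T1 and T3, and black bars show mean and SD of the 8 fish of a group. All 6 groups overlap, and the fish run from 16.0% to 38.3%.

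The first question was what warming did with oxygen at saturation. After 3 days the region mean was 27.7% ± 5.65 in WN and 26.0% ± 5.75 in CT fish (SD, n = 8 each, difference 1.67 points, 95% interval -4.50 to 7.69, exact permutation p = 0.564). The sexes were unevenly split and went in opposite directions. The 4 WN males averaged 24.8% and the 2 CT males 31.0%, but the 4 WN females averaged 30.6% and the 6 CT females 24.4%. Whether this difference varied by sex was not tested. Differences at the 18 CpGs ran from -0.335 to 3.53 points with a median of 1.35, beside a median of 0.0790 over all 94 CpGs tested. Those 94 include the 18, and most of the others lie in regions that averaged 0.505 to 1.36%. Levels so near the floor leave little room for differences in points, so these medians are not on a like footing. In the exact permutation test 0 of the 18 passed a Benjamini-Hochberg adjusted p of 0.05, as did 0% of the 94. At an unadjusted p under 0.05 there were also 0 of the 18, against 7.45% of the 94. The smallest p belonged to CpG 12, with 18.9% ± 4.95 in WN and 15.7% ± 4.70 in CT fish (difference 3.26 points, 95% interval -1.96 to 8.42, exact permutation p = 0.195, adjusted p = 0.851). CpG 8 was higher by 2.93 points in WN fish (exact permutation p = 0.380, adjusted p = 0.851) and CpG 4 by 3.11 points (exact permutation p = 0.441, adjusted p = 0.853). Each of these differences was smaller than the SD between fish of either group.

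After 4 weeks the corresponding region means were 27.8% ± 3.77 in WN and 27.6% ± 5.86 in CT fish (SD, n = 8 each). The means differed by 0.210 points (95% interval -5.09 to 5.43, exact permutation p = 0.916). The CpGs moved in both directions, with 11 of 18 higher in WN fish beside 55.3% of all 94, and differences from -2.62 to 2.68 points. None of the 18 passed the adjusted threshold (0% of the 94), and 0 had an unadjusted p under 0.05 (4.26% of the 94, exact permutation). CpG 15 had the smallest p, with 16.3% ± 2.81 in WN and 15.1% ± 2.64 in CT fish (difference 1.24 points, exact permutation p = 0.366, adjusted p = 0.982). At CpG 6 the level was lower by 2.62 points in WN fish (exact permutation p = 0.391), and at CpG 5 by 1.61 points (exact permutation p = 0.534, adjusted p = 0.982 for both).

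The combination of warming and hypoxia was set against controls next. At 3 days the region mean was 24.0% ± 4.17 in WH and 26.0% ± 5.75 in CT fish (SD, n = 8 each, difference -2.05 points, 95% interval -7.29 to 3.27, exact permutation p = 0.429). The groups held 5 males of 8 in WH and 2 of 8 in CT, and compared within sex WH minus CT came to -4.19 points (exact permutation p = 0.0884, adjusted p = 0.330 over 6 regions). Leaving out single fish gave -3.47 to -0.628 points. The mean was higher in WH fish at 0 of the 18 CpGs, beside 42.6% of all 94, and the differences ran from -4.62 to -0.170 points. Because the CpGs vary together between fish, this count is not 18 separate observations. In the exact permutation test 0 of 18 passed the adjusted threshold (0% of the 94) and 0 had an unadjusted p under 0.05 (7.45% of the 94). Within sex, 0 passed the adjusted threshold and 2 of 18 had an unadjusted p under 0.05. The share of all 94 CpGs in that test is not given here, so the 2 cannot be set against it. The 3 with the smallest p were CpG 3 at -2.18 points, CpG 17 at -0.629 and CpG 2 at -4.62 points (exact permutation p of 0.158, 0.160 and 0.172, adjusted p = 0.751 for each). CpG 3 ran from 4.74% over a median of 7.14% to 11.6% in WH fish, against 4.60%, 9.68% and 15.6% in CT fish. The WH fish lay inside the range of the CT fish, and their upper end was lower.

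At 4 weeks the region mean stood at 26.7% ± 3.12 in WH and 27.6% ± 5.86 in CT fish (SD, n = 8 each, difference -0.969 points, 95% interval -6.04 to 3.94, exact permutation p = 0.694). The sexes were unevenly split and went in opposite directions. The 2 WH males averaged 23.0% and the 5 CT males 29.1%, but the 6 WH females averaged 27.9% and the 3 CT females 25.1%. Whether this gap varied by sex was not tested. Differences ran from -4.08 to 2.87 points, with 4 of 18 CpGs higher in WH fish beside 42.6% of the 94. Of the 18, 0 passed the adjusted threshold (0% of the 94) and 0 had an unadjusted p under 0.05 (2.13% of the 94, exact permutation). CpG 16 showed 35.6% ± 4.52 in WH and 39.7% ± 7.68 in CT fish (difference -4.08 points, 95% interval -10.9 to 2.74, exact permutation p = 0.215, adjusted p = 0.866). CpG 12 differed by -3.04 points and CpG 5 by -3.12 points (exact permutation p of 0.218 and 0.275, adjusted p = 0.866 for both).

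With the sexes pooled, hypoxia on top of warming, at 3 days, gave the widest gap in region mean among the 6 comparisons of treatments. The within-sex gap between WH and CT fish at 3 days, given above, was wider than this pooled one. No ranking within sex is given here. The region mean was 24.0% ± 4.17 in WH and 27.7% ± 5.65 in WN fish, which makes -3.73 points (95% interval -8.91 to 1.64, n = 8 each, exact permutation p = 0.154, adjusted p = 0.418 over 6 regions). Leaving out single fish gave -5.40 to -2.65 points. The widest of these was without the lowest WN fish, number 77 (exact permutation p = 0.0190, adjusted p = 0.114), a fish picked from the same data. The mean was higher in WH fish at 0 of the 18 CpGs, beside 41.5% of all 94. The differences ran from -5.92 to -0.294 points with a median of -4.30, beside a median of -0.0482 points over all 94. These medians are not on a like footing, since most of the 94 had levels near the floor. The 18 CpGs vary together between fish and are not 18 separate observations. By sex the direction was not the same. The 3 WH females averaged 20.9% and the 4 WN females 30.6%, but the 5 WH males averaged 25.8% and the 4 WN males 24.8%. Whether the gap differed by sex was not tested.

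CpG 12 was the 1 CpG of the 18 with an unadjusted p under 0.05 in that comparison, beside 5.32% of all 94. Its levels ran from 9.25% over a median of 12.7% to 19.7% in WH fish, against 10.9%, 20.3% and 26.4% in WN fish. The groups overlapped, and the highest WH fish lay below the WN median. The means differed by -5.44 points (95% interval before adjustment -10.1 to -0.752, SE 2.17, n = 8 each, exact permutation p = 0.0274), and the adjusted p was 0.721. CpG 2 differed by -5.92 points (exact permutation p = 0.0538) and CpG 5 by -5.43 points (exact permutation p = 0.0559, adjusted p = 0.721 for both). None passed the adjusted threshold (0% of the 94).

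After 4 weeks the same 2 treatments stood closer, at 26.7% ± 3.12 in WH and 27.8% ± 3.77 in WN fish (difference -1.18 points, 95% interval -4.94 to 2.56, n = 8 each, exact permutation p = 0.4999). Here too the sexes were unevenly split and went in opposite directions. The 2 WH males averaged 23.0% and the 5 WN males 28.6%, but the 6 WH females averaged 27.9% and the 3 WN females 26.5%. Whether this gap varied by sex was not tested. CpG 12 again had the smallest p, with 15.8% ± 3.70 in WH and 19.5% ± 4.78 in WN fish (difference -3.65 points, SE 2.14, n = 8 each, exact permutation p = 0.112, adjusted p = 0.906). Its 8 WH fish ran from 9.60% over a median of 16.1% to 20.7%, against 9.09%, 20.3% and 24.9% in WN fish. The low end of the WN fish was a single fish, number 114. The next WN fish had 18.04%, and 2 of the 8 WH fish, with 19.9% and 20.7%, lay above that. Compared within sex, CpG 12 differed by -5.10 points (exact permutation p = 0.0300, adjusted p = 0.497). The share of all 94 CpGs with an unadjusted p under 0.05 within sex is not given here, so this p cannot be set against it. With the sexes pooled, CpG 16 differed by -3.53 points and CpG 11 by -1.99 points (exact permutation p of 0.182 and 0.247, adjusted p = 0.906 for both). In that pooled test 0 of the 18 CpGs passed the adjusted threshold (0% of the 94) and 0 the unadjusted one (3.19% of the 94, exact permutation). Set against each other directly, the treatment differences of the region mean did not differ past the threshold between the times. The WH minus WN difference changed by 2.55 points, WH minus CT by 1.08 and WN minus CT by -1.46 points at 4 weeks relative to 3 days (residual permutation, adjusted p = 0.748 for each).

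**Figure D4:**
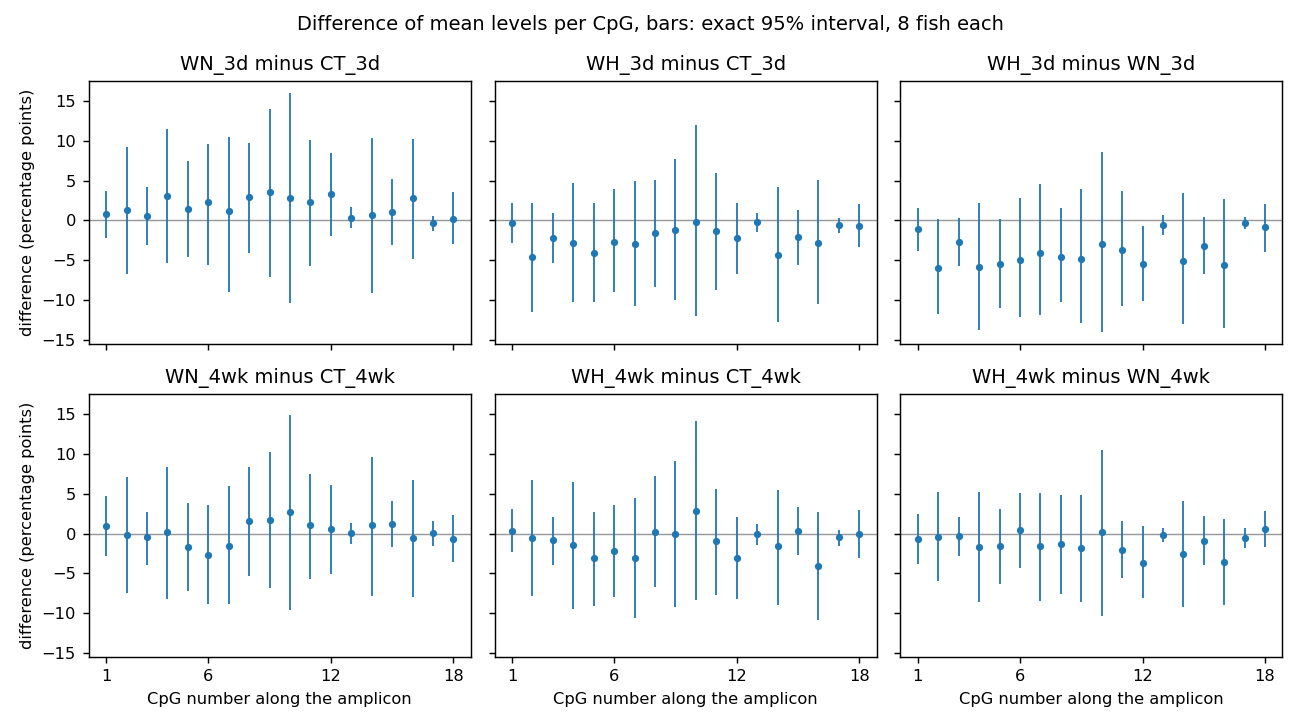
Difference of mean methylation in percentage points at CpGs 1 to 18 for the 6 comparisons of treatments, top row 3 days and bottom row 4 weeks, with exact 95% intervals before adjustment (8 fish per group). The interval of CpG 12 between WH and WN fish at 3 days is the 1 interval that leaves out 0.

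The same tanks were sampled at both times, with different fish. In WH fish all 18 CpGs had a higher mean at 4 weeks than at 3 days, by 0.445 to 4.96 points with a median of 2.33, beside 58.5% of all 94 CpGs and their median of 0.0703 points. The medians are not on a like footing, since most of the 94 had levels near the floor. The 18 CpGs vary together between fish and are not separate observations. The region mean was 26.7% ± 3.12 at 4 weeks and 24.0% ± 4.17 at 3 days, higher by 2.67 points (95% interval -1.34 to 6.64, n = 8 each, exact permutation p = 0.167, adjusted p = 0.462). The sexes were unevenly split between the times and went in opposite directions. Females averaged 20.9% at 3 days (n = 3) and 27.9% at 4 weeks (n = 6), and males 25.8% (n = 5) and 23.0% (n = 2). Whether the change differed by sex was not tested. At CpG 1 the WH fish ran from 6.94% over a median of 9.77% to 11.8% at 4 weeks and from 5.46% over 7.03% to 11.5% at 3 days (difference 2.14 points, SE 0.907, exact permutation p = 0.0354, adjusted p = 0.557). The ranges overlapped, with 4 of the 8 fish of 3 days below the lowest fish of 4 weeks. This was the 1 CpG of 18 with an unadjusted p under 0.05 (beside 7.45% of the 94). CpG 2 was higher by 4.96 points (exact permutation p = 0.0541, adjusted p = 0.557) and CpG 14 by 4.80 points (exact permutation p = 0.0967, adjusted p = 0.632), and 0 of the 18 passed the adjusted threshold (0% of the 94).

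In WN fish the region mean was 27.8% ± 3.77 at 4 weeks and 27.7% ± 5.65 at 3 days (SD, n = 8 each, difference 0.124 points, 95% interval -4.83 to 5.31, exact permutation p = 0.962). By sex the direction was opposite here too. Males averaged 24.8% at 3 days (n = 4) and 28.6% at 4 weeks (n = 5), and females 30.6% (n = 4) and 26.5% (n = 3). A dependence of this change on sex was not tested. CpG 17 was higher by 0.666 points at 4 weeks, CpG 1 was higher by 1.64 points and CpG 3 lower, at -1.26 points (exact permutation p of 0.297, 0.349 and 0.408, adjusted p = 0.972 for each). Controls had 27.6% ± 5.86 at 4 weeks and 26.0% ± 5.75 at 3 days (difference 1.59 points, 95% interval -4.55 to 7.73, n = 8 each, exact permutation p = 0.594). Within sex the difference was -0.345 points. Their means were higher at 4 weeks at 16 of the 18 CpGs, beside 59.6% of all 94. CpG 12 was higher by 3.22 points, CpG 16 by 3.59 and CpG 1 by 1.44 points (exact permutation p of 0.226, 0.331 and 0.333, adjusted p = 0.924 for each). In WN as in CT fish, 0 of the 18 CpGs passed the adjusted threshold (0% of the 94) and 0 had an unadjusted p under 0.05, beside 3.19% of the 94 in each treatment (exact permutation).

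Males and females were compared within groups. The region mean was 27.2% ± 5.34 in 23 males, with a lowest, median and highest fish of 16.0%, 26.8% and 38.3%, and 26.1% ± 4.25 in 25 females, with 16.1%, 25.5% and 35.2%. Compared within the 6 groups, males were higher by 1.11 points (permutation p = 0.465, adjusted p = 0.820 over 6 regions). Means were higher in males at 17 of the 18 CpGs, beside 53.3% of the 107 CpGs tested, and again these CpGs are not separate observations. CpG 13 was higher in males by 0.482 points, CpG 11 by 2.23 and CpG 10 by 3.75 points (permutation p of 0.186, 0.259 and 0.272, adjusted p = 0.996 for each). Of the 18, 0 passed the adjusted threshold (0% of the 107) and 0 had an unadjusted p under 0.05 (4.67% of the 107, permutation within groups). The direction was not the same in every group. In WN fish of 3 days the 4 males averaged 24.8% and the 4 females 30.6%, and in WH fish of 4 weeks the 2 males averaged 23.0% and the 6 females 27.9%. In the other 4 groups males were higher. They averaged 25.8% against 20.9% in females in WH and 31.0% against 24.4% in CT fish of 3 days, and 28.6% against 26.5% in WN and 29.1% against 25.1% in CT fish of 4 weeks. Whether the sexes differed by group was not tested.

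Tanks can be compared within a treatment. Over both times the region mean was 27.3% ± 2.67 in tank T5 and 28.3% ± 6.20 in tank T2 of the WN fish, 25.5% ± 4.64 in tank T6 and 25.1% ± 3.09 in tank T1 of the WH fish, and 26.7% ± 3.71 in tank T4 and 27.0% ± 7.42 in tank T3 of the CT fish (SD, n = 8 each). The differences of -1.02, 0.411 and -0.271 points did not pass the threshold (exact permutation within times, adjusted p at least 0.900 over 6 regions). The 2 lowest fish, at 16.0% and 16.1%, and the 2 highest, at 38.3% and 36.0%, came from tanks T2 and T3. The sexes were unevenly split between tanks in all 3 treatments, and the tank tests did not take sex into account. In WH fish of 3 days the 4 fish of T1 were all male and 3 of the 4 fish of T6 were female. Of the WN fish, T5 gave 3 males and 1 female at each time. T2 gave 1 male and 3 females at 3 days, and 2 of each at 4 weeks. Of the CT fish, T4 gave 4 females at 3 days and 2 of each sex at 4 weeks. T3 gave 2 of each sex at 3 days, and 3 males and 1 female at 4 weeks.

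CpGs 17 and 18 at the end of the amplicon had an unadjusted p under 0.05 between the WN tanks. They vary together between fish (r = 0.592, n = 48) and are not 2 separate observations. The sexes were unevenly split between these tanks, as given above. CpG 17 ran from 0.652% over a median of 2.51% to 2.78% in tank T5, against 1.69%, 3.39% and 5.43% in tank T2 (difference -1.39 points, exact permutation p = 0.0159). CpG 18 ran from 3.85% over 5.94% to 8.10% in T5, against 5.40%, 8.38% and 13.7% in T2 (difference -2.95 points, exact permutation p = 0.0192, adjusted p = 0.576 for both). At both CpGs all 8 fish of T5 lay below the T2 median, while the region mean of the tanks was close. They were 2 of the 18, beside 5.32% of the 94, and 0 of the 18 passed the adjusted threshold (0% of the 94). The next CpG by p, CpG 1, differed by -2.01 points (exact permutation p = 0.249, adjusted p = 0.993). Between the WH tanks and between the CT tanks 0 of the 18 passed either threshold (exact permutation, 0% of the 94 adjusted, and 1.06% and 2.13% unadjusted). T6 minus T1 of the WH fish was 1.03 points at CpG 1, 1.06 at CpG 18 and -1.35 at CpG 15 (exact permutation p of 0.271, 0.349 and 0.363, adjusted p = 0.992 for each). T4 minus T3 of the CT fish was -1.35 points at CpG 1, -0.477 at CpG 17 and 1.05 at CpG 18 (exact permutation p of 0.369, 0.462 and 0.505, adjusted p = 0.993 for each).

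The spread between fish was compared as well. The SD of the region mean at 4 weeks was 3.77 in WN, 3.12 in WH and 5.86 in CT fish, and at 3 days it was 5.65 in WN, 4.17 in WH and 5.75 in CT fish. The mean distance of a fish from its group median was 2.43 points in WH and 4.05 points in CT fish at 4 weeks, a difference of -1.62 (exact permutation p = 0.329). Over the 6 comparisons of treatments the adjusted p was at least 0.837 (exact permutation).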

How the data were processed

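Liver DNA of each fish was converted with bisulfite, amplified, indexed and sequenced on an Illumina instrument, per the labels' protocols. Bismark 0.20.0 with Bowtie2, Trim Galore 0.4.4 and MultiQC 1.9 appear in the submitters' processing notes. The sources used here do not give settings, handling of duplicates, conversion rate or build name. The deposited files hold raw counts of methylated and unmethylated calls per CpG, per the file headers. The sample name inside the file equalled the title in all 48 files. Group, sex and tank came from the labels. By the labels, every file belongs to its own fish, and no 2 files of a group held the same counts.

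A level is 100 times methylated over all calls. The amplicon is the stretch 35435825 to 35436217. Tests ran over the CpGs of all regions that reached 30 reads in 6 or more fish per group (94 CpGs, 107 for sex), with fish weighted equally. Groups of 8 were compared by exact permutation over 12870 splits, tanks over 4900 arrangements within times, and sexes with 100000 resamples within groups. Dependence of a treatment difference on time was tested by permuting residuals of an additive model as often. Tests are two-sided, with Benjamini-Hochberg adjustment over all CpGs tested or over 6 regions and a threshold of 0.05. The 95% intervals hold the shifts the exact test did not reject and are not adjusted. Alternatives were coverage minimums of 10 and 1000 reads, weighting fish by reads, limma 3.58.1 on M-values without and with tank as block, testing within sex, and leaving out each tank or fish. Python 3.11.15 was used, and the tests were checked on simulated counts. Relative to the SD between fish, the shifts planted in those counts were larger than the differences reported here. The check does not tell how often shifts of the reported size would be found. In each comparison the text names the CpGs past the threshold or, with fewer than 3 of those, its 3 smallest p-values. The amplicon and the tests were chosen with earlier results of these data known. Calls in other regions were used only for adjustment and comparison.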

Additional observations from a re-analysis of the deposited data

Results flagged for a closer look

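Of 114 sets of 8 fish (the region mean and the 18 CpGs in 6 groups), 8 held a fish whose gap to the next one, as a share of the range of its group, was above the 95% critical value of Dixon for 8 fish. Chance gives about 1 in 20 such sets, and the CpGs of a fish vary together. Warm normoxic (WN) fish 77 of 3 days was lowest at 4 CpGs in the middle of the amplicon, with 46.2% at CpG 6 (position 35435919) where the next fish had 62.3%, 35.1% against 55.8% at CpG 7, 26.4% against 45.3% at CpG 9 and 26.9% against 49.6% at CpG 10. It was the lowest fish of its group at 16 of the 18 CpGs, with a median of 71297 reads per CpG in a group that ranged from 55345 to 122436. Control (CT) fish 107 of 4 weeks was highest, with 17.4% against 10.8% at CpG 3 and 6.14% against 3.42% at CpG 17. It was the highest of its group at 16 of the 18 CpGs, with a median of 67563 reads per CpG. WN fish 90 of 3 days had 5.50% against 2.84% at CpG 13, and WN fish 114 of 4 weeks had 9.09% against 18.04% at CpG 12. What sets these fish apart was not tested.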

How the results depend on the processing

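In 246 alternatives of the 13 region mean comparisons 0 reached an adjusted p under 0.05, the lowest being 0.114, and 226 kept the direction. In 109 alternatives of the counts of called CpGs, limma on M-values included, 0 of the 18 CpGs passed in each. Among them was a test of each CpG's M-value relative to the other CpGs of its region in the same fish, chosen after the data were seen. The 226 include settings that could not turn the direction. Coverage minimums of 10 and 1000 reads left the region means as they were, since the lowest number of reads was 35795. Comparing the times within tanks could not change a difference either, since each tank gave 4 fish at each time. These settings say nothing on how firm the directions are.

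The direction changed, with no call in any case and the cause not tested, as follows. Without tank T2, the difference of region means was -1.12 points for WN minus CT at 4 weeks, 0.152 for WH minus WN at 4 weeks and -1.52 for WN at 4 weeks minus 3 days. Without tank T4, WN minus CT at 4 weeks was -0.276 points. Within sex, CT at 4 weeks minus 3 days was -0.345 points. With fish weighted by reads, tank T6 minus T1 was -0.680 points in WH and tank T4 minus T3 was 1.73 points in CT fish. Without tank T2, CpG 17 in WN fish at 4 weeks minus 3 days was -0.299 points.

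With each fish left out in turn, WN minus CT at 4 weeks ran from -0.920 to 1.74 points, WH minus CT at 4 weeks from -2.10 to 0.556 and WN at 4 weeks minus 3 days from -1.55 to 1.199. The direction turned when leaving out any 1 of fish 102, 104, 105, 111, 112 or 113 in the first, fish 107 in the second, and any 1 of fish 77, 78, 92, 102, 104 or 113 in the third. The other comparisons of groups kept their direction. Their ranges were 0.254 to 3.35 points for WN minus CT at 3 days, -3.47 to -0.628 for WH minus CT at 3 days, -5.40 to -2.65 for WH minus WN at 3 days, -1.87 to -0.321 for WH minus WN at 4 weeks, 1.98 to 3.69 for WH and 0.0624 to 3.01 for CT at 4 weeks minus 3 days. Single fish moved the first of these by more than 1.5 times (77, 79, 80, 82, 84 or 86), as well as the second (82 or 84), the fourth (97, 102, 104, 113 or 118) and the last (82, 84, 86, 105, 107 or 109). With tank as replicate block, WH at 4 weeks minus 3 days was 2.67 points in the permutation within tanks (adjusted p = 0.433).

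The number of DNA molecules behind the reads is unknown, so the share of the spread between fish that comes from sampling and PCR was not tested.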
